A study of Mus musculus with 9 samples.

Results

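Mutant hearts that had received a base editor were compared with saline-treated wild-type hearts, to see which transcripts still differed after treatment. Genes were taken where their values averaged 1 or more over the 6 libraries of these groups. They numbered 13554, out of 15418 genes in the table of this comparison and 15779 in the series as a whole. Pieces of adult heart from C57BL/6J mice had been flash frozen and their polyadenylated RNA sequenced, with 3 libraries per group. The saline wild-type group had the wildtype genotype. The treated mutants were homozygous for the Mybpc3 allele (Mybpc3R946X/R946X) and had been given the agent labelled high-dose-exABE8e. Saline-treated mice of the same mutant genotype, also in 3 libraries, are set beside them. In the series' description, an adenovirus-associated virus of serotype 9 (AAV9) carried the adenine base editor and restricted its expression to cardiomyocytes. The labels give no sex, age, dose in vector genomes or time after injection, and they do not say whether the libraries of a group came from separate animals, so p-values measure only the spread between these libraries. No wild-type mouse received the editor, so in this comparison genotype and vector treatment cannot be told apart.

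The product of Mybpc3 is cardiac myosin-binding protein C, which sits on the thick filament and regulates how myosin heads engage actin. Loss of the protein is a frequent cause of hypertrophic cardiomyopathy, in which heart muscle thickens and cardiomyocytes re-express genes of the fetal heart, such as the natriuretic peptide Nppa and skeletal-type contractile isoforms. An adenine base editor changes A-T pairs to G-C pairs without cutting both DNA strands, and can thereby turn a premature stop codon back into a codon for an amino acid.

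The R946X change puts a stop codon in place of an arginine codon of Mybpc3. In the GENCODE M21 transcript ENSMUST00000111430.9, which has 1277 codons, this codon lies in exon 27 of 35, at chr2:91132942-91132944 on the forward strand of GRCm38. The reference sequence around it, chr2:91132912-91132974 on the forward strand, is printed with the wild-type arginine codon in capitals, because this is the codon that the mutation removes.
Mybpc3 R946X codon and flanks: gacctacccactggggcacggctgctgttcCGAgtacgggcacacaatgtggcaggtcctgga

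Mybpc3 itself (chr2:91118144-91136516) stood at 1510, 1795 and 2039 in the 3 wild-type libraries and at 1024, 1374 and 1332 in the 3 treated mutants, in the deposited whole-number values. Every treated library was thus below every wild-type library. The treated mean was 69.8% of the wild-type mean (1243 ± 191 against 1781 ± 265, SD, n = 3), a log2 fold change of -0.52 (SE 0.158) that did not pass the test (limma, Benjamini-Hochberg adjusted p = 0.232). The saline mutants stood at 133, 142 and 186. Treated mutants were higher than these by 3.01 on the log2 scale (limma, adjusted p = 0.000254). Throughout, log2 fold changes are differences of mean log2(value + 1), which understate changes at low values. A gene is called where its adjusted p, over all genes tested, is under 0.05.

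The 6 libraries had totals of 999291 to 999382 and 14151 to 14490 genes above 0. Sequencing depth is unknown for values of this kind. The sex-linked genes divided the libraries. The X-inactivation transcript Xist was at 119 in wild-type replicate 1, which had 0 for the Y-linked Ddx3y, and at 0 in the other wild-type libraries, which had Ddx3y at 78 and 70. Treated replicate 1 held both, with Xist at 39 and Ddx3y at 38, whereas treated replicates 2 and 3 had Xist at 0. Whether treated replicate 1 holds RNA of more than 1 animal was not tested. Among the saline mutants, replicate 3 had Xist at 351 and Ddx3y at 0. Counts are therefore also given without wild-type replicate 1 and treated replicate 1, the 2 libraries with Xist. The share of values on mitochondrially encoded genes ranged from 17.6% to 24.1%.

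Genes called in treated hearts were mostly higher than in wild type, a split that varied with the variance step and the scaling. Of the 13554 genes, 134 were called (0.989%), 117 of them higher (0.863%) and 17 lower (0.125%), and the groups of all 134 did not overlap. The change was at least 2-fold for 91 of the called genes, and the smallest was 0.58 on the log2 scale. Of the genes called higher, 45 had a wild-type mean under 10, and 8 were listed at 0 in every wild-type library. Those 8 passed the filter only through their treated values. Over all genes tested the median log2 fold change was 0.01, with 6971 genes above 0 and 6583 below. Groups did not overlap for 1973 genes (14.6%), 1237 of them higher (9.13%) and 736 lower (5.43%). With limma's empirical Bayes step and no variance floor, 39 genes were called higher and 38 lower, and with upper-quartile factors 119 and 46. The number of calls rested on having all 6 libraries. It was 9, all higher, without the libraries with Xist, and those 9 were Edn3, Cilp, Mybpc2, Nppa, Ltbp2, Ccn2, Tnfrsf12a, Ankrd1 and Synpo2l. Leaving out 1 wild-type library left 1, 3 or 12 calls, and leaving out 1 treated library left 24, 22 or 133. All 134 genes kept their direction under each of the 18 alternatives that tested them.

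**Figure D1:**
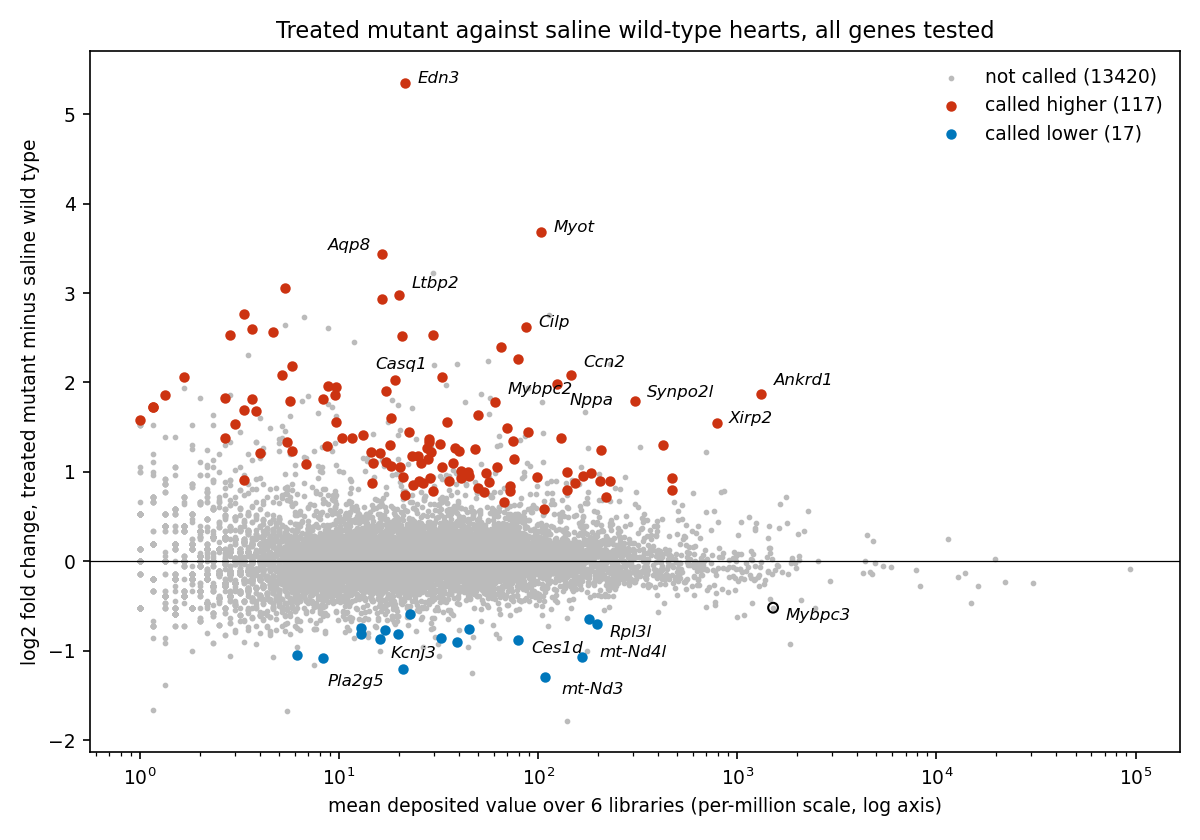
Each point is 1 of the 13554 genes tested, with its mean deposited value over the 6 libraries on a log axis and its log2 fold change, treated mutant minus saline wild type. Red points are the 117 genes called higher and blue points the 17 called lower. The called genes lie mostly above 0, with Edn3 the highest at 5.35, and Mybpc3 (open circle) lies at -0.52 among the genes not called.

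The gene furthest from wild type was Edn3 (chr2:174760619-174784042), which encodes endothelin-3, a secreted vasoactive peptide. It was listed at 0 in all 3 wild-type libraries and at 64, 38 and 26 in the treated mutants. No treated library came near the wild-type level, and the call held in all 18 alternatives (limma, adjusted p = 0.00238). Because the wild-type group is at 0, no fold is given. The saline mutants had 39, 51 and 40, a range that overlaps the treated one. The difference between treated and saline mutants was -0.11 on the log2 scale (limma, adjusted p = 0.951). Other genes of the endothelin system did not pass the test: Edn1 had a log2 fold change of 0.25 and the receptors Ednra and Ednrb 0.41 and 0.09.

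Aqp8, a water channel of the aquaporin family (chr7:123462291-123468004), was at 2, 1 and 3 in wild type and at 33, 22 and 38 in treated mutants. All treated values were above all wild-type values, with a log2 fold change of 3.44 (SE 0.291, limma adjusted p = 0.0138), and 16 of 18 alternatives kept the call. The saline mutants were higher again, at 78, 75 and 62, without a call between the mutant groups (-1.21, limma adjusted p = 0.139). Aqp4, another water channel, lay the other way, at 7, 15 and 10 in wild type, at 2, 6 and 5 in treated mutants and at 0 in all 3 saline mutants, and did not pass the test against wild type (-1.16, adjusted p = 0.246). Of the 10 endothelin and aquaporin genes tested, Edn3 and Aqp8 rose and none fell, where 0.863% of all genes were called higher.

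The genes of cardiac hypertrophy and the fetal programme held the most calls of any list. Of 25 tested, 12 rose (0.863% over all genes), none fell and 13 did not pass. The median log2 fold change was 1.28 against 0.01 for all genes. The groups did not overlap for 19 in the higher and 2 in the lower direction, where the shares over all genes were 9.13% and 5.43%. Most of the 12 called genes belong to the stretch response and the Z-disc, the anchor of the thin filaments, where 8 of 12 genes rose. They were Myot, Ankrd1, Ankrd2, Xirp2, Synpo2l, Flnc, Enah and Fhl1. Of the 12, Ankrd2 and Gdf15 were at 0 in wild type and passed the filter only through their treated values. Without the libraries with Xist, 4 of the 25 were called. The list had been drawn up with results of these hearts known, and is no independent evidence of its direction.

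Myot encodes myotilin, which crosslinks actin at the Z-disc. Its values were 14, 9 and 18 in wild type, 243, 229 and 106 in treated mutants and 261, 238 and 245 in saline mutants. Treated replicate 3 was the lowest treated library and still far above wild type, and the log2 fold change over wild type was 3.68 (SE 0.353, limma adjusted p = 0.0169). Against the saline mutants it was -0.45 (limma, adjusted p = 0.695), and those groups overlapped. Without the libraries with Xist the rise over wild type was 3.51 and was no longer called (adjusted p = 0.067).

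Ankrd1 (chr19:36111961-36120099) encodes a titin-binding ankyrin repeat protein that increases in stretched heart muscle. It stood at 411, 591 and 663 in wild type and at 2897, 1727 and 1594 in treated mutants. The lowest treated library was above the highest wild-type one, with a log2 fold change of 1.87 (SE 0.262, limma adjusted p = 0.0281). The saline mutants spanned 1811 to 3291 and overlapped the treated mutants. Its promoter is printed because GGAATG, the MCAT element read by TEAD transcription factors, occurs there 2 times, in capitals below. The stretch lies inside the GENCODE bounds given above, because the RefSeq start differs from the GENCODE one. The sequence is that of RefSeq on GRCm38.p6, chr19:36119845-36120094, reverse strand, the 250 bases before the RefSeq start.
Ankrd1 promoter: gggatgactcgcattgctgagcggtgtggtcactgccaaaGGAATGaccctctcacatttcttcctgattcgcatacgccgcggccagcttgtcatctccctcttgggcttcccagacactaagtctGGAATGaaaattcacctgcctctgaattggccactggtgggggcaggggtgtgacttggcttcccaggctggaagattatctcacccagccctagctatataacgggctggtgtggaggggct

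GGAATG on either strand was present in 13 of the 90 genes called higher with a promoter in that table (14.4%), in 10.6% of 10092 genes tested and in 12.6% of all 27025 promoters. The share among the genes called higher was thus close to that of promoters in general, and a match is a description of the sequence only.

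Xirp2, an actin-binding protein of the intercalated disc and Z-disc, was at 325, 461 and 411 in wild type, 1155, 932 and 1442 in treated mutants and 2146 to 2411 in saline mutants. The 3 groups did not overlap, and the treated mutants lay between the others. The log2 fold change over wild type was 1.55 (SE 0.189, limma adjusted p = 0.0258). Synpo2l, also called CHAP, a Z-disc protein, went from 129, 129 and 138 to 670, 337 and 430 (1.79, adjusted p = 0.0277). Flnc, the muscle filamin, had a log2 fold change of 1.30 and Enah, which promotes actin filament growth, 1.24. Fhl1, a LIM protein that binds titin, was at 0.96, and its call held in 4 of 18 alternatives. Ankrd2, a relative of Ankrd1, was listed at 0 in all wild-type libraries and at 2 in each treated one. It passed the filter only through these treated values, which are near the rounding step of the files. Without spread inside either group, its test rested on the variance floor and the prior. The call held in 6 of the 14 alternatives that tested Ankrd2. Xirp1 at 1.28 and Ankrd23 at 1.27 did not pass, with groups that did not overlap.

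The natriuretic peptides, hormones that the working myocardium releases under load, stood between the wild-type and the saline mutant levels. Nppa (chr4:148000722-148002079) was at 61, 42 and 45 in wild type, 256, 187 and 155 in treated mutants and 356, 858 and 1489 in saline mutants. No groups overlapped. The treated mean was 4.04 times the wild-type mean (199 ± 51.6 against 49.3 ± 10.2, SD, n = 3), with a log2 fold change of 1.98 (SE 0.21, limma adjusted p = 0.0196). The difference from the saline mutants, -1.97, did not pass (limma, adjusted p = 0.253). Nppb, the B-type peptide, was at 61, 38 and 38 in wild type, 188, 115 and 78 in treated mutants and 344 to 490 in saline mutants. It did not pass against wild type (1.40, adjusted p = 0.126) or against the saline mutants (-1.85, limma adjusted p = 0.139).

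Nppa is also an atrial transcript, and the other atrial markers are therefore given beside it. Of 7 atrial markers tested, Nppa rose, Kcnj3 and Stard10 fell, and 4 did not pass, among them Dkk3 at 1.28, Clu at 0.79 and the atrial light chain Myl4 at 0.72. Over all genes, 0.863% were called higher and 0.125% lower. The summed level of the 7 atrial markers was 419 to 503 in wild type and 666 to 981 in treated mutants. The defining markers Myl7, Sln, Bmp10 and Mybphl were not analysed here, and the part of atrial tissue in these results was not tested. In bulk tissue, fewer cells of a type and less RNA per cell cannot be told apart.

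Among the fetal contractile isoforms, Tpm2, the beta-tropomyosin, rose from 19, 21 and 16 to 180, 91 and 64 (2.39, SE 0.338, limma adjusted p = 0.029). Treated replicate 1 was the highest. Acta1, skeletal alpha-actin, was at 266, 437 and 597 in wild type, at 971, 1087 and 841 in treated mutants and at 4810, 4989 and 4824 in saline mutants. The treated libraries lay above wild type without passing (1.22, SE 0.271, adjusted p = 0.112), and were lower than the saline mutants by a called difference of -2.34 (limma, adjusted p = 0.000254). Myh7, the beta-myosin heavy chain, was uneven among treated hearts, at 223, 307 and 51 against 84, 66 and 100 in wild type. Replicate 3 was below the wild-type range while the others were above it, and the gene did not pass (0.88, adjusted p = 0.598). Saline mutants had 759 to 1364, and the difference of treated mutants from them, -2.74, did not pass (limma, adjusted p = 0.214). Acta2, smooth muscle actin, lay the other way without passing, at 257, 328 and 189 in wild type and 186, 170 and 161 in treated mutants (-0.55, adjusted p = 0.293).

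Acta1 and Mybpc3 were the only genes called between treated and saline mutants, 2 of 13636 (0.0147%). In that comparison 9.82% of genes had groups without overlap. Neither was called against wild type.

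The remaining called genes of the list are secreted or signalling factors. Ccn2, a matricellular growth factor, was at 47, 52 and 59 in wild type and at 364, 178 and 175 in treated mutants (2.08, adjusted p = 0.0277). Gdf15, a stress-induced cytokine, was listed at 0 in every wild-type library and at 11, 3 and 3 in treated mutants (adjusted p = 0.0479). It passed the filter only through the treated values, which are near the rounding step of the files in replicates 2 and 3. The call held in 5 of the 17 alternatives that tested Gdf15. Rcan1, an inhibitor of calcineurin, was at 69, 81 and 66 in wild type and at 633, 366 and 163 in treated mutants. The groups were separate, the treated libraries differed widely from each other, and the gene did not pass (2.21, adjusted p = 0.074).

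**Figure D2:**
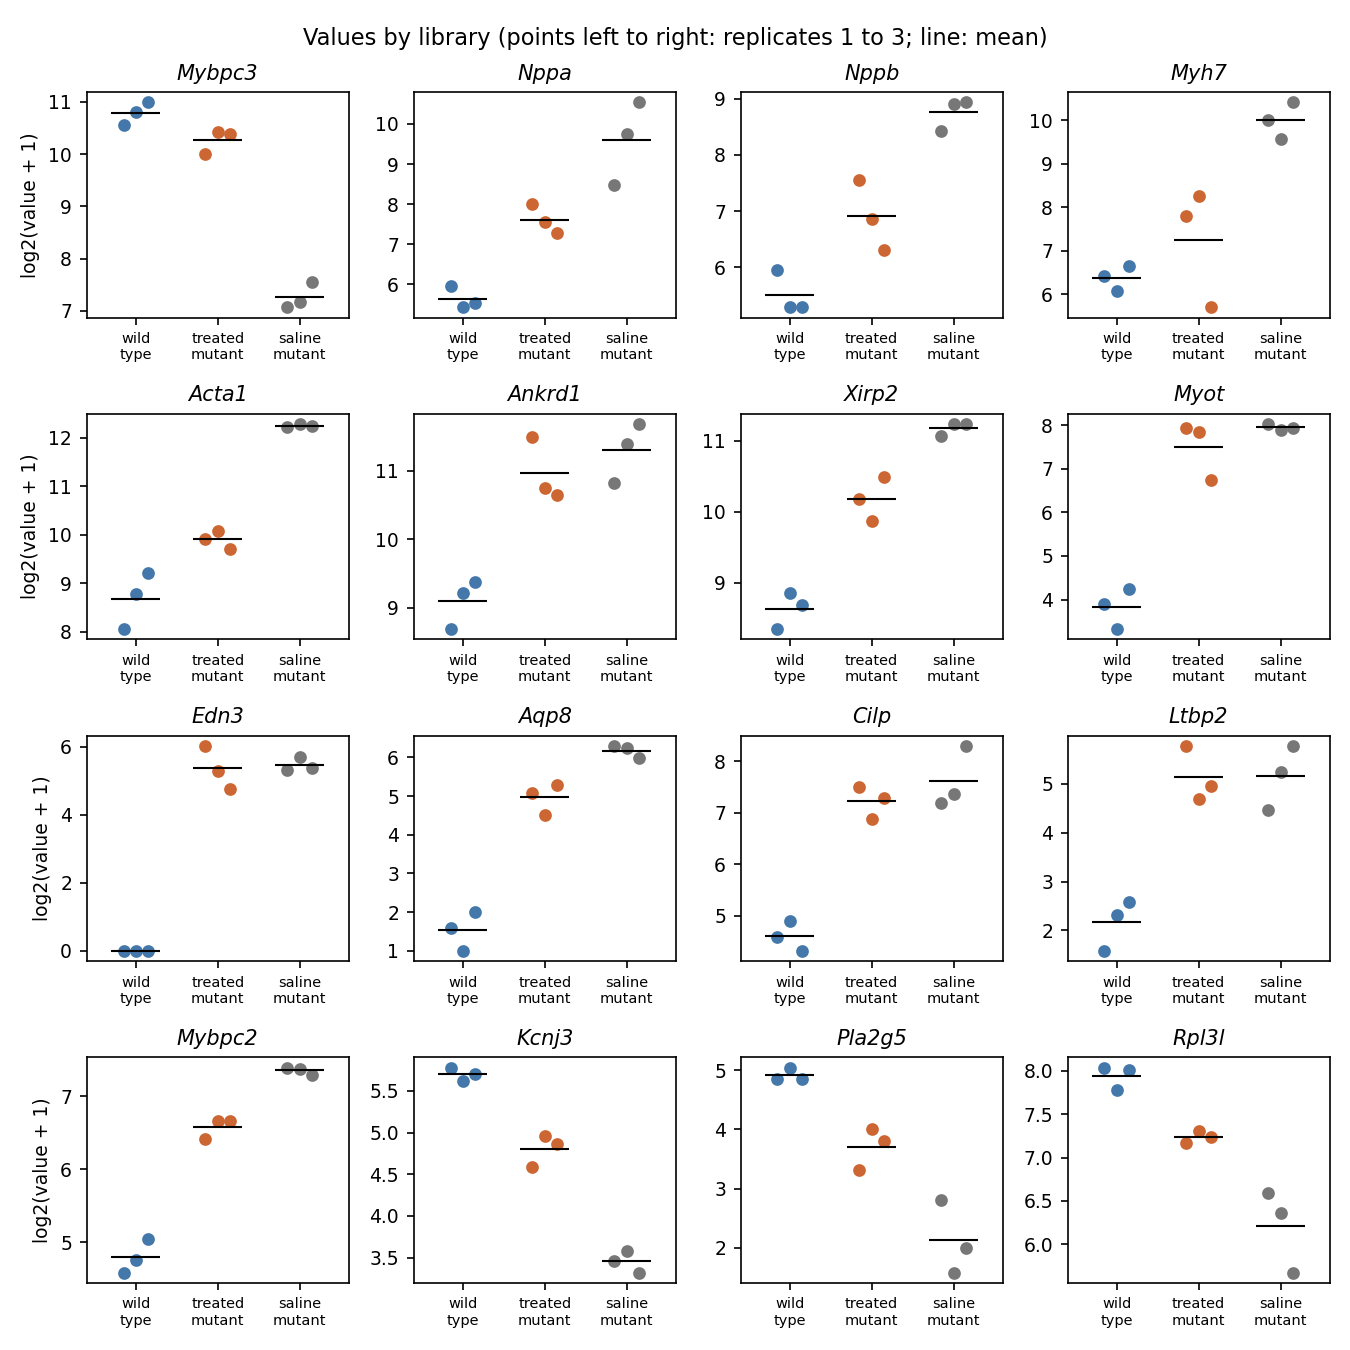
Points are log2(value + 1) in each library of the saline wild-type, treated mutant and saline mutant groups, with replicates 1 to 3 from left to right and a line at the group mean; each panel has its own vertical range. Edn3, Myot, Cilp and Ltbp2 have overlapping treated and saline mutant points, whereas Acta1, Nppa, Mybpc2, Kcnj3 and Rpl3l have treated points between those of the other groups.

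The sarcomere genes proper held 1 call. Of 26 tested, 1 rose (0.863% over all genes), none fell and 25 did not pass, with a median of 0.03. The gene that rose was Mybpc2 (chr7:44501699-44524656), which encodes the fast skeletal muscle form of myosin-binding protein C. It was at 23, 26 and 32 in wild type, 84, 100 and 100 in treated mutants and 167, 165 and 156 in saline mutants. The 3 groups were tight and separate, and the rise over wild type was 1.78 (SE 0.144, limma adjusted p = 0.013), called in 16 of 18 alternatives. Against the saline mutants Mybpc2 was lower by a difference of -0.78 that did not pass (limma, adjusted p = 0.0841). The main cardiac isoforms differed little in the treated hearts: Myh6, the alpha-myosin heavy chain, had a log2 fold change of 0.02, Myl2 -0.06, Tnnt2 -0.14 and Tnni3 -0.22. Des, the muscle intermediate filament protein desmin, was at 0.56 and Myom3, an M-band protein, at 0.98, neither called.

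Of 18 calcium-handling genes tested, 1 rose (0.863% over all genes) and none fell, with a median of 0.05. Casq1 (chr1:172209894-172219868) encodes the skeletal muscle form of calsequestrin, a calcium buffer of the sarcoplasmic reticulum. Its values went from 10, 13 and 13 to 68, 40 and 54, and the saline mutants had 97, 64 and 58. Treated libraries were all above wild type and overlapped the saline mutants, with a rise of 2.06 on the log2 scale over wild type (SE 0.202, limma adjusted p = 0.0169). The cardiac form Casq2 was at 0.37 and the calcium pump Atp2a2 at -0.18 (adjusted p = 0.521), neither called. Of 12 skeletal muscle markers, 4 reached the level for testing and 0 were called. Ckm, at 1227 to 1607 in wild type, had a log2 fold change of -0.27, and Mylpf was at 0 to 2 in the 6 libraries. Myh4 and Tnnt3 were at 0 or 1 in all 6 libraries. The part of skeletal muscle tissue in these results was not tested.

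The extracellular matrix list held 3 calls. Of 40 genes tested, 3 rose (0.863% over all genes), none fell and 37 did not pass, with a median of 0.43. Log2 fold changes were above 0 for 36 of the 40, and for 6971 of all 13554 genes. By library, the list's median log2 difference from the wild-type mean was 0.002, 0.30 and -0.26 in wild type. It was 0.46, 0.19 and 0.63 in treated mutants, so these medians overlapped. For single genes, the groups did not overlap for 12 in the higher and 1 in the lower direction. The shares over all genes were 9.13% and 5.43%. Cilp (chr9:65265180-65280605), a matrix protein that binds and restrains transforming growth factor beta, was at 23, 29 and 19 in wild type and at 179, 117 and 155 in treated mutants. All treated hearts were far above wild type (2.62, SE 0.199, limma adjusted p = 0.0126), and 17 of 18 alternatives kept the call. The saline mutants, at 145, 163 and 314, overlapped them. Ltbp2 (chr12:84783212-84876532), a latent transforming growth factor binding protein of the microfibrils, was at 2, 4 and 5 in wild type, 54, 25 and 30 in treated and 21, 37 and 54 in saline mutants (2.98 over wild type, SE 0.339, adjusted p = 0.0247). Lox, the lysyl oxidase that crosslinks collagen, went from 6, 7 and 7 to 24, 15 and 20 (1.41, adjusted p = 0.0277).

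None of the 14 collagens tested was called. Col1a1, the main chain of type I collagen, was at 196, 247 and 148 in wild type and at 261, 218 and 305 in treated mutants, with groups that overlapped (0.42, adjusted p = 0.449). Col3a1 was at -0.01, and Postn, the matricellular periostin of activated fibroblasts, at 0.90 (adjusted p = 0.36) with 160, 90 and 237 in treated hearts against 68, 115 and 66. Timp1, an inhibitor of matrix proteases, was at 1.27 (adjusted p = 0.365). Thbs4, a thrombospondin, had a log2 fold change of 3.23 that did not pass (adjusted p = 0.0731), since treated replicate 1 stood at 121 and the others at 17 and 29, against 3, 4 and 3 in wild type. Of 10 fibroblast markers, among them Col1a1, Col1a2 and Col3a1, 0 were called. Their median was 0.07, and 0.22 without the libraries with Xist. Their summed level was 3595 to 4803 in wild type and 4177 to 4727 in treated mutants. The part of fibroblast number in the matrix values was not tested.

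**Figure D3:**
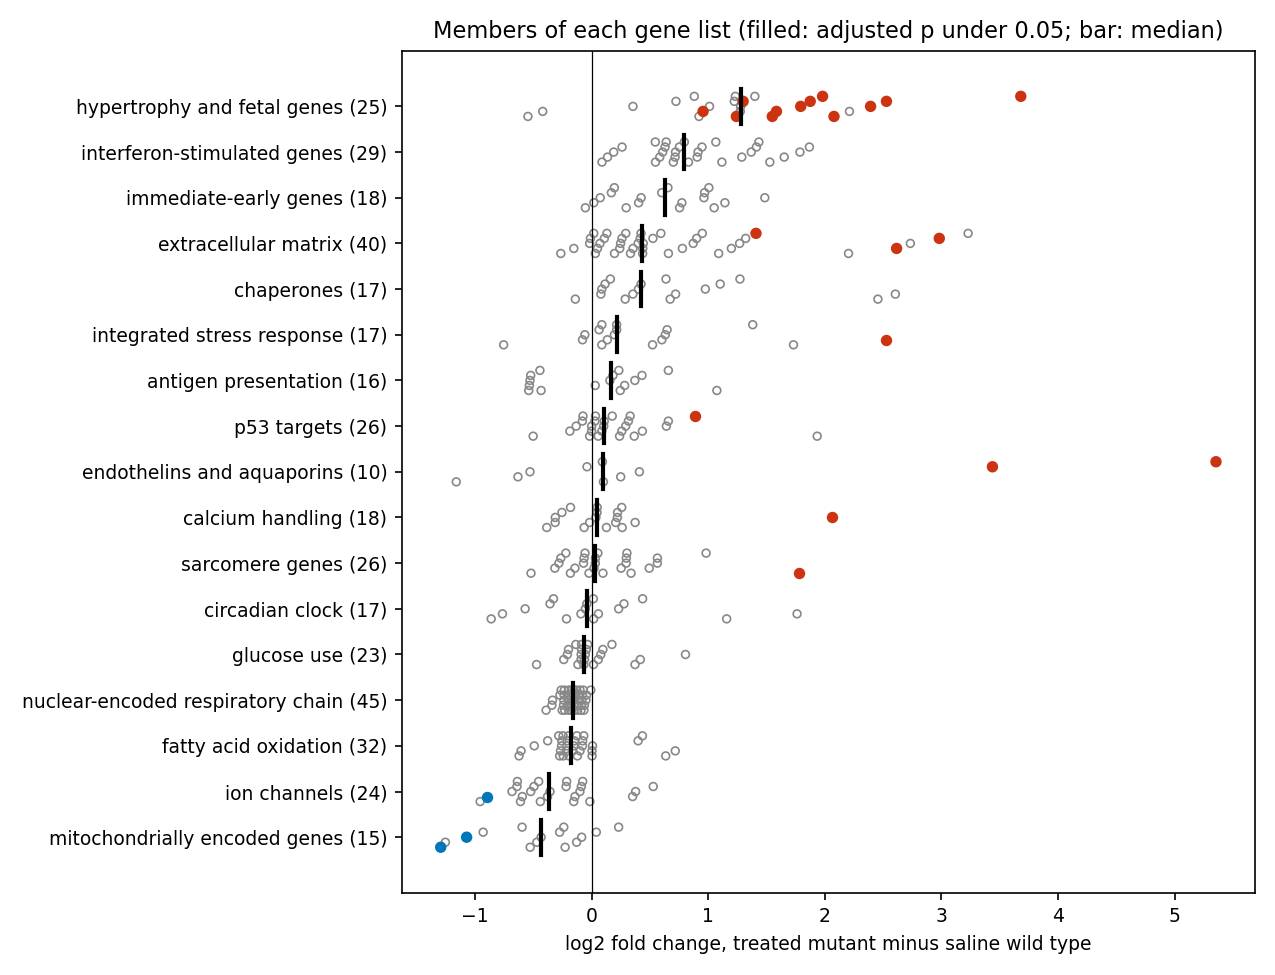
Each row is a gene list with its number of tested members in parentheses, each circle the log2 fold change of a member, treated mutant minus saline wild type, and each bar the list's median. Filled circles passed the test (red higher, blue lower). The hypertrophy and fetal list has its median at 1.28 with 12 filled circles, and the mitochondrially encoded list has its median at -0.43 with 2.

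Cardiac ion channels had mostly negative log2 fold changes and 1 call. Of 24 tested, 1 fell (0.125% over all genes), none rose and 23 did not pass, with a median of -0.37. The groups did not overlap for 10 genes in the lower direction, where the share over all genes was 5.43%. Kcnj3 (chr2:55435970-55598145), the GIRK1 subunit of the acetylcholine-gated potassium channel, was at 54, 48 and 51 in wild type, 23, 30 and 28 in treated mutants and 10, 11 and 9 in saline mutants. The groups were separate and the treated hearts lay between the others. The log2 fold change was -0.90 against wild type (SE 0.125, limma adjusted p = 0.0281) and 1.34 against the saline mutants (limma, adjusted p = 0.0576). All 15 potassium channel genes had negative log2 fold changes, but only Kcnj3 passed. Kcnd2, of the transient outward current, was at 30, 38 and 37 and at 12, 21 and 21 (-0.96, adjusted p = 0.126), and Scn4b, a sodium channel beta subunit, was at -0.68 (adjusted p = 0.143).

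The genes of fatty acid oxidation, the main fuel pathway of the adult heart, held no call. Of 32 tested, the median was -0.18, and 13 had groups that did not overlap in the lower direction (5.43% over all genes). Acaa2, the thiolase of the last step of beta-oxidation, was at 940, 809 and 949 in wild type, 622, 590 and 706 in treated mutants and 547, 497 and 380 in saline mutants. Every treated library was below every wild-type one (-0.49, adjusted p = 0.122). Hadh, the preceding enzyme, was at -0.38. Cpt1b, which carries fatty acids into mitochondria in muscle, was listed at only 1 to 4 in these libraries. Of 23 genes of glucose use none was called, with a median of -0.06, Eno3 at -0.47 and Slc2a1 at 0.81.

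All 45 nuclear-encoded respiratory chain genes tested had log2 fold changes below 0, from -0.39 to -0.01, and none was called. Over all genes, 6583 of 13554 were below 0. By library, the list's median log2 difference from the wild-type mean was 0.10, -0.09 and -0.02 in wild type. It was -0.03, -0.26 and -0.17 in treated mutants, so the groups overlapped. The median log2 fold change of the 45 genes was -0.16. For 13 of them the groups did not overlap, all in the lower direction, where the share over all genes was 5.43%. Cox7a1 at -0.39, Atp5o at -0.34 and Ndufa10 at -0.23 had the smallest p-values. With upper-quartile factors the median of all genes was -0.05 and that of this list -0.24.

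Of the 15 mitochondrially encoded genes, 2 fell (0.125% over all genes), none rose and 13 did not pass, with a median of -0.43. Both are subunits of complex I. mt-Nd4l was at 236, 240 and 202 in wild type and at 124, 103 and 95 in treated mutants, with saline mutants at 138, 263 and 184. Treated hearts were below wild type throughout (-1.07, SE 0.129, limma adjusted p = 0.0258), while the saline mutants overlapped wild type. The difference of treated from saline mutants, -0.81, did not pass (limma, adjusted p = 0.359). mt-Nd3 was at 124, 207 and 132 in wild type and 62, 50 and 72 in treated mutants (-1.29, SE 0.217, adjusted p = 0.0487). Its call held in 5 of 18 alternatives. The saline mutants were at 527, 74 and 80, so that 2 of them were also below wild type and replicate 1 stood apart. Without the libraries with Xist, 0 of the 15 genes were called. mt-Atp8 was at -1.25 (adjusted p = 0.074) and the ribosomal RNA mt-Rnr2 at 0.23. The mitochondrial share of a library was 20.0% to 24.1% in wild type and 17.6% to 20.7% in treated mutants, and its part in these 2 falls was not tested. Nuclear copies of mitochondrial sequence can share reads with such short genes.

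**Figure D4:**
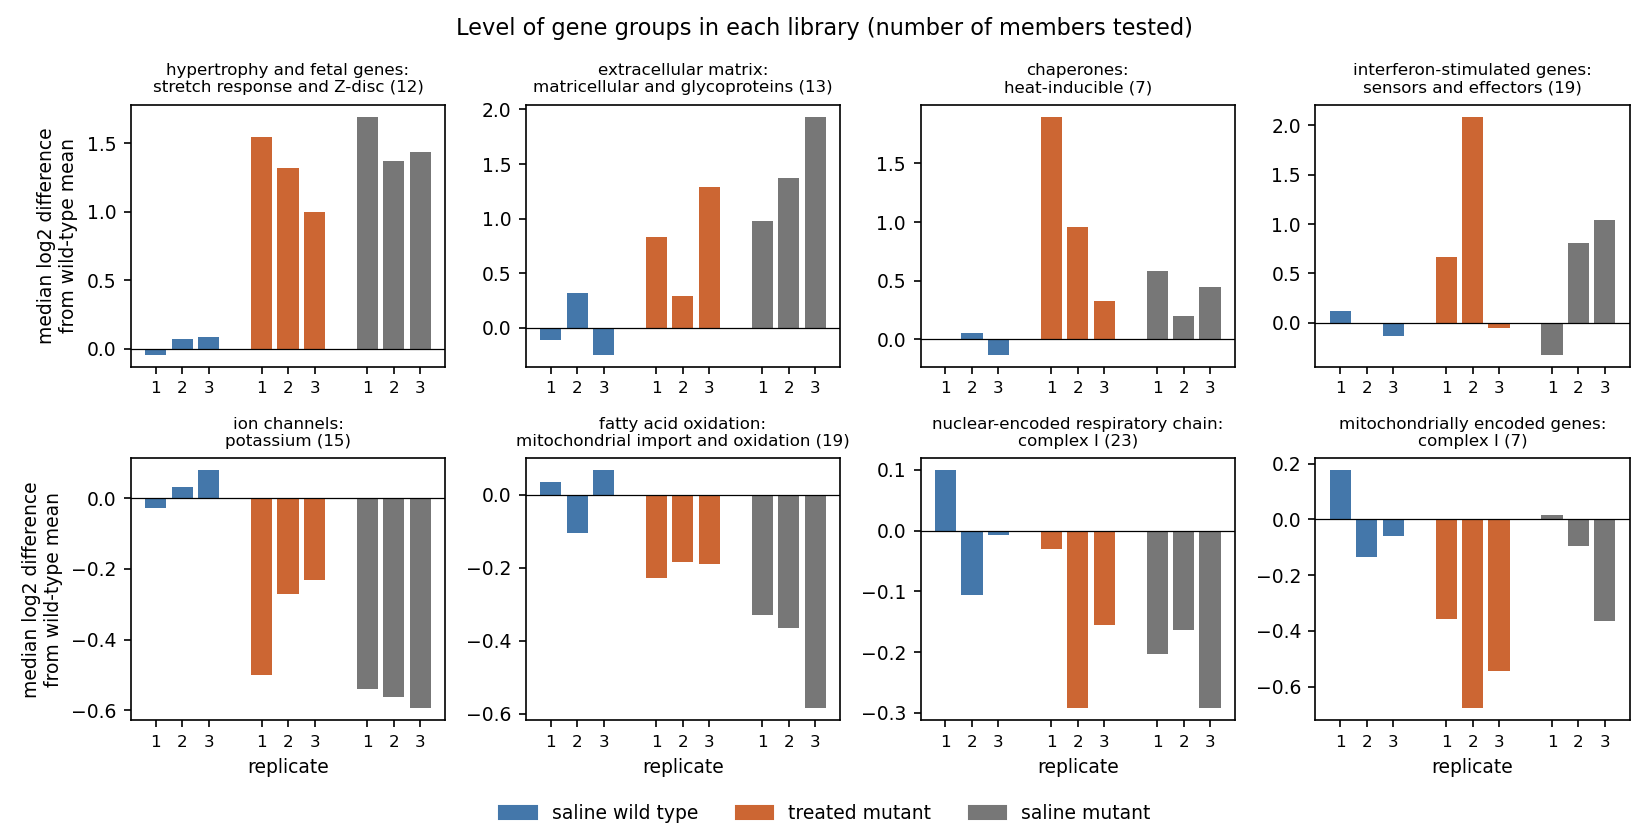
Bars give, for each library of the 3 groups, the median over a gene group of the log2 difference from the wild-type mean, with the number of genes in parentheses and a separate vertical scale in each panel. Stretch and Z-disc genes are at 1.55, 1.32 and 0.99 in the treated libraries, and interferon sensors and effectors are at 2.09 in treated replicate 2 but at 0.67 and -0.05 in the others.

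Interferon-stimulated genes had positive log2 fold changes throughout, with by far the highest values in treated replicate 2. All 29 tested were above 0, with a median of 0.80, and none was called. Ifit3, an antiviral effector, was at 27, 20 and 20 in wild type and at 38, 499 and 25 in treated mutants. Treated replicate 2 was far above the rest, and treated replicate 3 was within the wild-type range. Irf7, a transcription factor of the response, was at 36, 23 and 23 against 49, 213 and 28. Without treated replicate 2 the list's median was 0.23. Saline mutant replicates 2 and 3 had Ifit3 at 48 and 68. Of 16 antigen presentation genes none was called: all 10 class I genes were above 0 and all 6 class II genes below. The groups overlapped for every gene of both classes. The median of the 16 was 0.17, and 0.01 without treated replicate 2. Of 13 macrophage markers 0 were called, with a summed level of 493 to 684 in wild type and 507 to 677 in treated mutants. Their median was 0.003, and 0.16 without the libraries with Xist. The part of immune cells in these values was not tested.

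Heat-inducible chaperones also differed among the treated libraries. The 17 chaperone genes had a median of 0.42 and none was called. Hspa1a, an inducible HSP70 whose reads are shared with its near-identical copy Hspa1b, was at 1 in every wild-type library and at 29, 19 and 2 in treated mutants. Replicate 3 was close to wild type. The circadian activator Arntl had the same order, at 3, 3 and 2 in wild type and at 25, 17 and 3 in treated mutants. None of 17 clock genes was called, with a median of -0.04 and Dbp, a clock output, at -0.86. None of 18 immediate-early genes was called, with a median of 0.63 and 7 genes without overlap in the higher direction (9.13% over all genes), among them Jun at 0.60, Myc at 0.75 and Egr2 at 0.97.

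Of 26 p53 target genes 1 rose (0.863% over all genes) and none fell, with a median of 0.11. The gene that rose was Btg2, an antiproliferative factor, from 42, 39 and 36 to 88, 69 and 64 (0.89, SE 0.139, limma adjusted p = 0.0416). Cdkn1a, the cell cycle inhibitor p21, was at 37, 23 and 46 in wild type and at 190, 166 and 74 in treated mutants, without overlap, and did not pass (1.93, adjusted p = 0.0803). Mdm2 was at 0.24 and Bax at 0.18. Of 17 genes of the integrated stress response 1 rose (0.863% over all genes), which was Gdf15 as given above, with a median of 0.21. Mthfd2, a mitochondrial folate enzyme, was at 1.38 (adjusted p = 0.0796).

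The 15 largest rises also took in genes outside the lists. Cpxm2, a carboxypeptidase-like secreted protein, went from 5, 7 and 13 to 63, 49 and 40 (2.54, adjusted p = 0.0258). Tnfrsf12a, the receptor for the cytokine TWEAK, went from 32, 25 and 20 to 199, 104 and 93 (2.26, adjusted p = 0.0277). Nlrc3, an intracellular sensor of the NLR family, went from 2, 4 and 3 to 36, 35 and 19 (2.93, adjusted p = 0.0169). These treated libraries were all above wild type, with replicate 1 the highest for each gene.

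Others were low in wild type. Fgf6, a growth factor of the muscle lineage, was at 0, 0 and 1 in wild type and at 15, 11 and 5 in treated mutants (adjusted p = 0.0281). Vgll2, a cofactor of TEAD factors in skeletal muscle, was listed at 0 in wild type and at 12, 5 and 3 in treated mutants (adjusted p = 0.0299). Adamts20, a metalloprotease, was at 0, 1 and 0 and at 7, 4 and 10 (adjusted p = 0.03). The values of these genes are near the rounding step of the files, although their groups did not overlap. Lrp8, a receptor of the LDL receptor family, was at 0, 1 and 1 and at 12, 6 and 8, and Cnksr1, a scaffold of Ras signalling, at 4, 5 and 6 and at 36, 55 and 18 (adjusted p = 0.0277 and 0.0299).

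The genes called lower were few and changed less. None of the 17 was called when any wild-type library was left out, nor without the libraries with Xist. Pla2g5 (chr4:138799244-138863482), a secreted phospholipase A2, was at 28, 32 and 28 in wild type, 9, 15 and 13 in treated mutants and 6, 2 and 3 in saline mutants. The 3 groups were separate, with the treated hearts between the others (-1.21 against wild type, SE 0.182, limma adjusted p = 0.0331). Its difference from the saline mutants was 1.58 (limma, adjusted p = 0.201).

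Rpl3l (chr17:24727820-24736143), the striated-muscle form of ribosomal protein L3, was at 262, 218 and 257 in wild type, 143, 157 and 150 in treated mutants and 95, 81 and 50 in saline mutants. The treated libraries agreed closely among themselves and lay between the other groups (-0.70, SE 0.105, limma adjusted p = 0.0326). Against the saline mutants the difference was 1.03 (limma, adjusted p = 0.203). Ces1d, a carboxylesterase of a multigene family whose reads may be shared between copies, was at 99, 97 and 114, at 48, 61 and 58, and at 24, 15 and 14 in the 3 groups in the same order. It fell by 0.88 from wild type (limma, adjusted p = 0.0285) and stood above the saline mutants by 1.63 (limma, adjusted p = 0.0656).

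Lrrc4b, a synaptic adhesion protein, went from 10, 14 and 11 to 4, 6 and 5 (-1.08, adjusted p = 0.0487), with saline mutants at 2, 1 and 1. Fgf16, a cardiac growth factor, went from 24, 21 and 18 to 11, 12 and 10 (-0.87, adjusted p = 0.0443). Crhr2, the receptor of the urocortin peptides, went from 26, 25 and 25 to 12, 15 and 15 (-0.82, adjusted p = 0.0326). In each of these the treated and wild-type libraries were separate. Stard10 (-0.82), a lipid transfer protein, Lamb3 (-0.77), a laminin chain, Ttll1 (-0.75), a tubulin-modifying enzyme, Gstt1 (-0.74), a glutathione transferase, and Entpd5 (-0.64), a nucleotidase of the endoplasmic reticulum, completed the 15 largest falls with Mhrt.

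Mhrt, an antisense RNA of the myosin heavy chain locus (chr14:54968678-54974349), was at 7, 9 and 10 in wild type, 4, 3 and 4 in treated mutants and 8 in each saline mutant. Every treated library was below every library of the other groups (-1.05 against wild type, SE 0.174, limma adjusted p = 0.0483). The difference from the saline mutants, -0.96, did not pass (limma, adjusted p = 0.158). These values are near the rounding step of the files, and the call of Mhrt held in 5 of the 17 alternatives that tested it. The sources used here do not say whether counting used the strand, so its reads and those of its sense partner cannot be told apart.

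Markers of the cell types that heart tissue can hold had few calls. None of the 10 ventricular cardiomyocyte markers was called, their median was -0.04, and their summed level was 70126 to 77085 in wild type and 72250 to 73043 in treated mutants. None of 12 endothelial, 8 smooth muscle and pericyte, 6 erythroid, 4 nerve and glial or 3 B cell markers was called, with medians of -0.13, -0.14, -0.45, -0.32 and -0.53. Of the neutrophil and the T and NK cell markers only Csf3r and Cd4 reached the level for testing, at 1 or 2 in each of the 6 libraries, and no adipocyte marker did. Of the 2 epicardial markers tested Krt8 rose, listed at 0 in wild type and at 5, 2 and 3 in treated mutants (limma, adjusted p = 0.0277). It passed the filter only through these treated values, which are near the rounding step of the files. The call held in 6 of the 17 alternatives that tested Krt8, and not without the libraries with Xist. Wt1, the defining epicardial factor, was at 4, 6 and 3 against 5, 6 and 5, and Krt19 was at 0 in all 6 libraries.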

How the data were processed

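Hearts of 9 samples had been sequenced as polyadenylated RNA. The submitters' processing notes name HISAT2, HTSeq, DESeq2 and the mm10 build, with no versions or roles given. The authors deposited whole-number values per gene and library whose unit is not stated; since every library sums to between 999152 and 999382 they were treated as a score, probably a scaled value rounded by the authors, and no count test was used. Depth is unknown and no counting error can be given. The deposited fold changes and p-values were not used. Precision rests on 3 libraries per group.

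Groups came from the sample titles. With limma 3.58.1 in R 4.3.3, log2(value + 1) was fitted over the 6 libraries of the 2 groups, for genes averaging 1 or more, with no covariate. Residual variances were floored at the variance that rounding adds (1/12 in squared value units), then moderated with a trend, taking the prior degrees of freedom from genes that average 30 or more. P-values are two-sided and adjusted by Benjamini-Hochberg over all genes tested, and a gene was called under 0.05. The scripts were tested on simulated data. Treated and saline mutants were fitted alone in the same way.

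The members and the 32 gene lists were chosen with earlier results of these data known. Genes named are Mybpc3, 10 markers, the 15 called genes without overlap that rose most and the 15 that fell most (leaving out names of the Gm and Rik kind), the 3 smallest p-values of each list and sex-linked genes. Other genes were named after their values were seen. Positions are those of GENCODE M21 (GRCm38), which has a gene of the same name for 98.5% of the genes tested. Promoters are RefSeq's. The 18 alternatives changed the pseudocount, filter, scaling, variance step, libraries, replicate block or a Y-linked covariate. For treated against saline mutants, leaving out a saline mutant library or the libraries with Xist was chosen after seeing the data.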

Additional observations from a re-analysis of the deposited data

How the results depend on the processing

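The 134 calls (117 higher, 17 lower) became 86 (77 and 9) with no filter on low values, 77 (39 and 38) with limma's empirical Bayes step and no variance floor, 243 (203 and 40) with a variance prior estimated on every gene, 239 (205 and 34) with all 9 libraries in 1 fit, 29 (29 and 0) with a Y-linked covariate and 9 (9 and 0) without the libraries with Xist. Leaving out 1 library gave 1 to 133 calls, 1 to 130 higher and 0 to 3 lower. Genes called lower numbered 9 with a pseudocount of 5, 37 with median-of-ratios factors and 46 with upper-quartile factors, where 72.1% of 165 calls were higher, against 87.3%. Without the floor 50.6% were higher and 26 of the 134 genes were called again. Edn3 was called in all 18 alternatives, 66 of the 134 in at least 9 and 17 in at most 5. The causes were not tested.

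With the replicate number as a block 35 genes were called (33 higher, 2 lower), 32 of them among the 134. Deviations of wild-type and treated libraries with the same number correlated at 0.453, 0.11 and 0.00473. Those with different numbers correlated at -0.311 to 0.235. The highest value, 0.453, was between the 2 libraries with Xist. The numbers were not taken to pair the samples.

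Mybpc3 stayed uncalled against wild type throughout, between -0.63 and -0.39. Of the values of single genes under the alternatives, 1825 kept direction and side of the threshold, 306 lost and 49 gained a call, and 14 changed sign, none of them called. Myh6 changed to -0.061 with upper-quartile factors, -0.15 with the Y-linked covariate and ranged from -0.17 to 0.20 with 1 library left out. Col3a1 changed to 0.10 without the libraries with Xist and ranged from -0.24 to 0.19 with 1 library left out. Kcna1, a nerve marker, changed from -0.33 to 0.29 without the libraries with Xist and ranged from -0.69 to 0.10 with 1 library left out. Edn3 against the saline mutants ranged from -0.44 to 0.19 with 1 library left out, and was above 0 without saline mutant replicate 2 or treated replicate 3.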

Other observations

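The following genes were also called between treated mutants and wild type, and were picked after their values were seen. Tgfbr1, the type I receptor of transforming growth factor beta, was at 30, 31 and 30 in wild type and 61, 65 and 54 in treated mutants (0.96, limma adjusted p = 0.0221). Adamtsl2, a secreted glycoprotein of the microfibrils, was at 41, 44 and 40 and at 95, 100 and 129 (1.34, limma adjusted p = 0.0169). Cd44, the hyaluronan receptor, and Itga5, an integrin subunit that binds fibronectin, had log2 fold changes of 1.31 and 0.94. In all 4 genes every treated library was above every wild-type library.

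Some called genes are better known from other tissues. Krt18, the usual partner of Krt8 in simple epithelia, was at 1 throughout wild type and at 5, 8 and 4 in treated mutants (1.69, limma adjusted p = 0.0281), with 6, 6 and 10 in saline mutants. Neb, which encodes the skeletal thin-filament protein nebulin, was at 2, 5 and 4 and at 16, 16 and 14 (1.86, limma adjusted p = 0.0281), with 32, 24 and 28 in saline mutants. Dct, an enzyme of melanin synthesis, was at 3, 4 and 3 and at 20, 16 and 12 (1.95, limma adjusted p = 0.0195), with 19 in each saline mutant. Tbx15, a transcription factor of skeletal development, was at 1 throughout wild type and at 9, 4 and 6 in treated mutants (1.82, limma adjusted p = 0.0281). These values are low, and the groups compared did not overlap for any of these 4 genes.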
